A study of Homo sapiens with 6 samples.

Results

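The 3 genes described here are IFITM1, IFITM2 and IFITM3, which code for the interferon-induced transmembrane proteins of the cell surface and endosomes. They were chosen from measured values: IFITM3 was among the largest falls between the arrays of cells treated with an shRNA that targets PLEKHO1 (shPLEKHO1) and the arrays of cells given a negative control shRNA (shNC), and its relatives IFITM1 and IFITM2 were added by name. All 5 probe sets whose only annotated gene symbol was one of these names were taken, out of 46820 probe sets with a symbol, and the 3 genes belong to 18132 genes tested. A separate class was foreseen for probe sets annotated with several IFITM symbols, and it held 0. IFITM1 and IFITM2 had a pair of probe sets each, and IFITM3 had 1.

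The cells were 786O, an established human line from a renal cell carcinoma. Lentivirus delivered a short hairpin RNA (shRNA), made to lower the messenger RNA with the matching sequence. Of 6 single-colour Affymetrix arrays, 3 held RNA of cells with shNC and the other 3 held RNA of cells with shPLEKHO1. All cells received lentivirus. The labels give no hairpin sequence and no time after delivery. They do not say that replicates came from separate cultures, so the p-values reflect only how much these arrays vary, which may be technical variation.

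IFITM proteins are small membrane proteins that interferon induces in most cells and that many cells also make without it. They stiffen membranes and hinder the fusion of enveloped viruses with the cell. IFITM3 and IFITM2 work mainly in endosomes, where a sorting signal near the start of the protein brings them, and IFITM1 works mainly at the cell surface. Their genes lie side by side on chromosome 11 and arose by duplication, so their transcripts are alike in sequence.

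The sequences in front of these genes are shown because they carry the element through which interferon acts on the family. The table of RefSeq promoter windows (GRCh38.p14) matched 2 of the 3 genes by symbol, IFITM1 and IFITM3. Each line gives 110 bases before the annotated transcript start and the first 10 bases after it, 5′ to 3′ on the gene's strand, with capitals for matches to the core of the interferon-stimulated response element: GAAA, any 2 bases, and GAAA again.
IFITM1, chr11:313930-314049, plus strand: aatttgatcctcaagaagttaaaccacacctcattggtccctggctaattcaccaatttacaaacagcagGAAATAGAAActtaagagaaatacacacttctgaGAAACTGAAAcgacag
IFITM3, chr11:320851-320970, minus strand: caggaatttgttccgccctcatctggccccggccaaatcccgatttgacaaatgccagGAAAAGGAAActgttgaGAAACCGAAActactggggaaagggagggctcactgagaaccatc

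Both windows held 2 matches to this core, on the gene's strand. In IFITM3 they began 52 and 35 bases before the start, and in IFITM1 they began 40 and 6 bases before it. Over all 35116 windows of 250 bases before to 50 after a start, searched on both strands, 3.57% held at least 1 match and 0.259% held at least 2. The other interferon element searched for, GAS (TTC, any 3 bases and GAA), had 1 match in IFITM1, beginning 12 bases before the start and overlapping the response element, and 0 in IFITM3; 7.66% of all windows held it. In a global alignment of the 250 bases before the start, IFITM1 and IFITM3 were identical in 165 of 262 columns (63.0%). A match is a run of letters and does not show that a factor binds there.

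Intensity values below are as deposited, on a linear scale. Log2 differences are those of log2(intensity + 1) after quantile normalization, with shNC subtracted from shPLEKHO1, ± SE from limma with n = 3 arrays per group. For the IFITM1, IFITM2 and IFITM3 probe sets they are a description without a test, since this contrast chose the genes. The targeted gene, PLEKHO1, fell by 19.8% (log2 difference of -0.32 ± 0.08, limma adjusted p = 0.0123), and the exact two-sided permutation test gave p = 0.1, the smallest that 3 against 3 arrays allow. Median intensity was between 55.7 and 57.1 on all arrays. Across genes, log2 values correlated at 0.998 to 0.999 within groups and at 0.989 to 0.990 between them. In RNA of whole cultures, fewer cells with a transcript and less of it per cell cannot be told apart.

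IFITM3 was much lower with shPLEKHO1. This is the member that is known best for blocking influenza virus in late endosomes. Its probe set read 1204.9, 1157.4 and 1208.4 with shNC and 210.3, 255.7 and 225.7 with shPLEKHO1. Every shNC array was far above every shPLEKHO1 array, and the lowest shNC value was 4.53 times the highest shPLEKHO1 value. The means were 1190 ± 28.5 and 231 ± 23.1 (SD, n = 3), with coefficients of variation of 2.4% and 10%. The log2 difference was -2.36 ± 0.07, a 5.13-fold lower level. The level with shPLEKHO1 was 19.5% of that with shNC, with a 95% confidence interval from 17.5% to 21.7%. This interval does not allow for the choice of IFITM3 by its large fall in the same arrays.

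IFITM2, the closest relative of IFITM3, was at 46.2% or 54.7% of its control level, and its pair of probe sets gave like values. On the first (11754061_x_at) the intensity was 255.0, 262.8 and 287.3 with shNC and 130.3, 105.3 and 133.0 with shPLEKHO1. On the second (11757436_x_at) it was 238.1, 225.9 and 250.2 with shNC and 129.4, 129.6 and 127.7 with shPLEKHO1. The groups did not overlap on either probe set. The first had a log2 difference of -1.11 ± 0.10, a 2.17-fold lower level, and the second one of -0.87 ± 0.05, a 1.83-fold lower level. Their 95% confidence intervals were -1.35 to -0.88 and -0.99 to -0.75. Both probe sets were read on the same arrays, and whether their log2 differences were unlike was not tested.

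The spread of IFITM2 within the shPLEKHO1 group differed between its probe sets, with a coefficient of variation of 12.4% on the first and 0.81% on the second. The first owed its spread to shPLEKHO1 replicate 2, at 105.3, the lowest of its group. On that same array IFITM3 had the highest value of its group, 255.7. Without that array the difference of the first IFITM2 probe set was -1.00 and that of IFITM3 was -2.42.

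IFITM1, the surface protein that is also known as CD225 and Leu-13, showed no such fall. Its first probe set (11715670_a_at) read 46.7, 54.0 and 50.1 with shNC and 52.3, 47.6 and 48.2 with shPLEKHO1. Its second (11715671_x_at) read 65.6, 68.4 and 66.0 with shNC and 65.7, 55.8 and 61.1 with shPLEKHO1. The groups overlapped on both. The log2 differences were -0.01 ± 0.06 (95% confidence interval -0.15 to 0.13) and -0.13 ± 0.07 (-0.28 to 0.03). The lower bounds of these intervals correspond to 89.8% and 82.5% of the control level, above the values of IFITM2 and IFITM3. They hold for the signal of these dim probe sets, and how much of it is background was not tested.

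**Figure D1:**
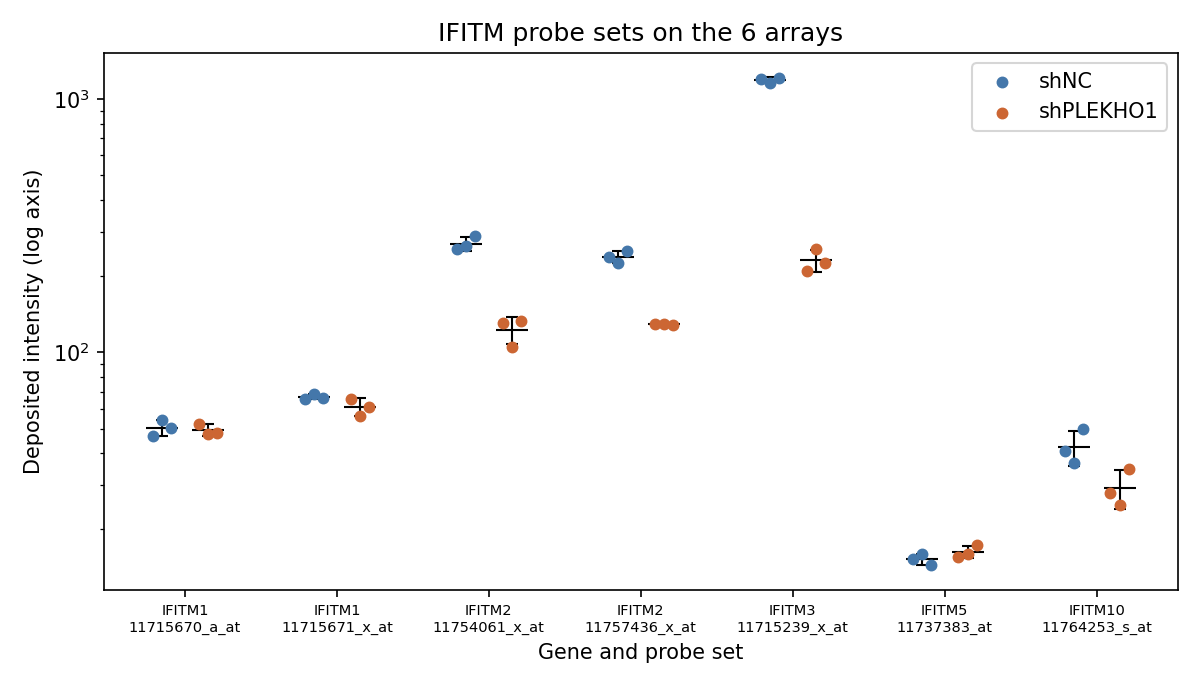
Deposited intensity (log axis) of each IFITM probe set on the 6 arrays, with shNC in blue and shPLEKHO1 in orange, and the mean ± SD (n = 3) as black bars. IFITM3 goes from a mean of 1190 to 231 and the IFITM2 probe sets from 268 to 123 and from 238 to 129, while the groups of IFITM1 overlap.

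In all, 3 of the 5 probe sets fell in limma (adjusted p under 0.05) and 0 rose, where 15.6% of all 46820 probe sets fell and 32.7% were called in either direction. Nothing is read from this count, since the contrast chose the genes. The groups did not overlap on the same number, 3 of 5, against 44.4% of all probe sets. The median log2 difference of all probe sets was 0.01, and the central 90% of them lay between -0.53 and 0.48. A lower difference than that of IFITM3 was seen on 10 probe sets, while 421 and 849 had a lower one than the IFITM2 probe sets. For the IFITM1 probe sets the numbers were 20636 and 10654. Among genes, each read from its brightest probe set, 2 had a lower difference than IFITM3, 144 a lower one than IFITM2 and 3958 a lower one than IFITM1. IFITM3 was chosen for its large fall, so its rank was largely set in advance.

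How far the probe sets can tell the 3 transcripts apart limits these values. Of the 5, 4 carry the suffix x_at, which on Affymetrix arrays marks sets with probes that may bind transcripts of other genes as well, and these include the sets for IFITM2 and IFITM3. Signal from IFITM3 transcript on the IFITM2 probe sets and a fall of IFITM2 itself cannot be told apart here. The only set without that suffix, 11715670_a_at, is one of the IFITM1 sets.

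The dimness of IFITM1 is a further limit. The array has 23 background probe sets, ordered by the number of G and C bases in their probes, with a median of 7.82 over their mean intensities. With 16 such bases the background read 13.3 with shNC and 13.9 with shPLEKHO1, and with 20 it read 55.3 and 59.8. The base composition of the IFITM1 probes was not used here, so how much of the 50.3 and 66.7 read with shNC is background was not tested.

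Of the other genes of the family, most did not pass the threshold. Their proteins share the CD225 domain, which holds the membrane anchors of IFITM proteins. Of 8 measured relatives, 2 fell, 0 rose and 6 did not pass, with a median log2 difference of -0.04. Over all 18132 genes, 16.0% fell, 18.1% rose and 34.1% were called in either direction, and the median was 0.01.

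IFITM10 read 40.6, 36.7 and 49.7 with shNC and 27.9, 24.9 and 34.7 with shPLEKHO1. The groups of this probe set lie close together without overlapping. IFITM10 fell 1.44-fold on this, its only probe set (-0.52 ± 0.14, limma adjusted p = 0.022). The call was lost without shNC replicate 1 (adjusted p = 0.0568), without shNC replicate 3 (0.0693), without shPLEKHO1 replicate 1 (0.067) and without shPLEKHO1 replicate 2 (0.0744). Its adjusted p ran from 0.00163 to 0.0744 over all alternatives. The other relative that fell was TMEM91, by 1.25-fold (-0.32 ± 0.07, adjusted p = 0.00605), with both of its probe sets down. IFITM5, which bone-forming cells make, read 15.2 ± 0.794 and 16.3 ± 0.881 (SD, n = 3), with a difference of 0.08 ± 0.07. The base composition of the IFITM5 and IFITM10 probes was not used, so how much of their dim readings is background was not tested.

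The genes next to the family on chromosome 11 were examined in their RefSeq order. IFITM5, IFITM2, IFITM1 and IFITM3 follow each other there, with no other tested gene between them. The 16 nearest tested genes were taken, 6 on the side of IFITM5 and 10 on the side of IFITM3. Of these, 3 fell (18.8%), 2 rose (12.5%) and 11 did not pass, with a median of 0.01. The shares over all genes were 16.0% that fell and 18.1% that rose. The gene next to IFITM3, B4GALNT4, a glycosyltransferase, was at 0.12 ± 0.06 (adjusted p = 0.149). The gene next to IFITM5, PGGHG, an enzyme that removes glucose from hydroxylysine in collagen, was at -0.03 ± 0.12 (adjusted p = 0.908).

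Further out, the mitochondrial deacetylase SIRT3 fell 1.46-fold (-0.55 ± 0.06, limma adjusted p = 0.000272), with 3 of 4 probe sets down and a mean over probe sets of -0.34. HRAS, the small GTPase, rose 1.29-fold (0.37 ± 0.06), with both probe sets up, and RASSF7 fell 1.33-fold (-0.41 ± 0.07). BET1L, a vesicle fusion protein of the Golgi, was lower on its brightest probe set (-0.42 ± 0.06). Of its 3 probe sets, though, 2 fell and 1 rose, and their mean missed the threshold (-0.10, adjusted p = 0.203, the highest over the alternatives, where the lowest was 2.54e-06). The differences of all 16 neighbours lay between -0.55 and 0.37.

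**Figure D2:**
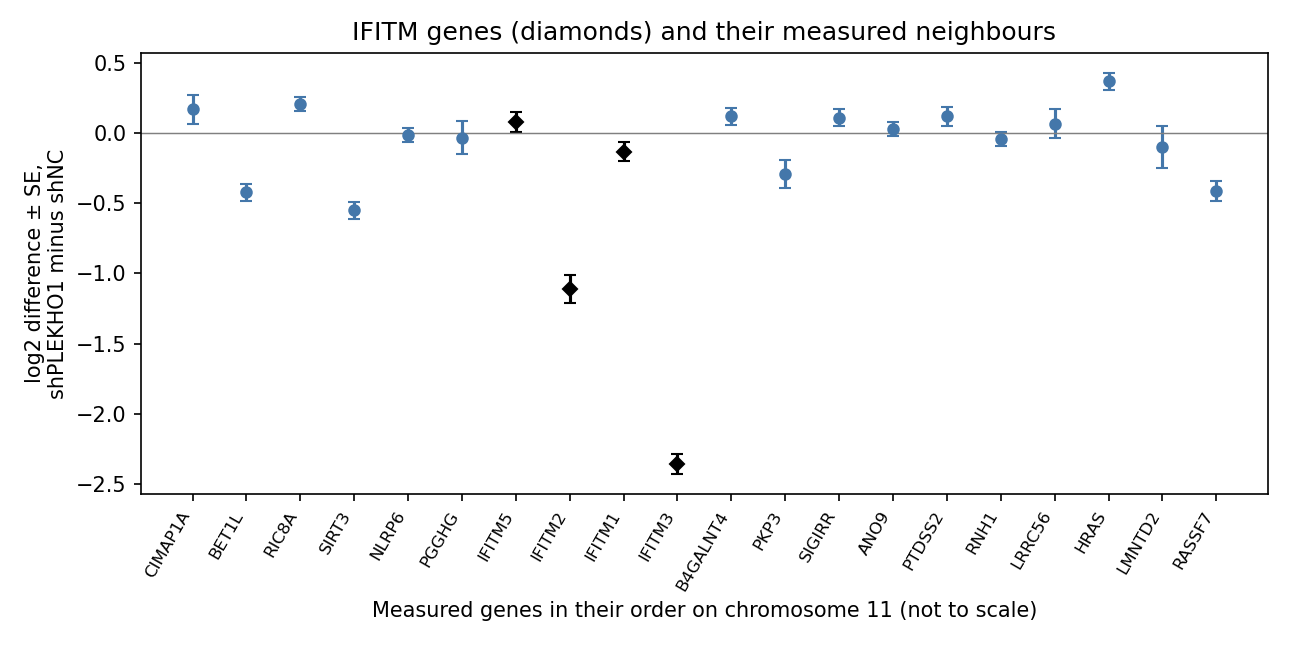
Log2 difference ± SE (shPLEKHO1 minus shNC, n = 3 per group) of the IFITM genes (black diamonds, brightest probe set) and of the 16 nearest tested genes (blue circles), in chromosome order and not to scale. IFITM3 at -2.36 and IFITM2 at -1.11 lie below all neighbours, which run from -0.55 to 0.37, and IFITM1 and IFITM5 lie among them. IFITM3 was chosen for its large fall, so its place below the neighbours was largely set in advance.

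Interferon-stimulated genes went both ways. These are the genes that interferon switches on together with the IFITM family, most of them antiviral. Of 47 measured genes of this kind, IFITM genes left out, 14 fell (29.8%), 11 rose (23.4%) and 22 missed the threshold. Over all genes 16.0% fell and 18.1% rose. The median log2 difference of the list was -0.01. Their differences lay between -1.41 and 1.15. None fell as far as IFITM3, but IFITM3 was chosen for its large fall, so nothing is read from this.

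PLSCR1, a phospholipid scramblase that also limits virus entry, read 584.5, 531.7 and 562.2 with shNC and 206.7, 223.9 and 196.6 with shPLEKHO1. The groups were far apart. Each of its 6 probe sets fell, and the fall was 2.65-fold (-1.41 ± 0.05, limma adjusted p = 2.06e-06), the furthest of the list. GBP1, a guanylate-binding GTPase that interferon gamma induces strongly, read 147.0, 123.4 and 146.4 with shNC and 305.8, 317.2 and 300.3 with shPLEKHO1. It rose 2.22-fold (1.15 ± 0.07, adjusted p = 1.23e-05), with all 5 probe sets up. The exonuclease ISG20 rose 2.03-fold (1.02 ± 0.08), and IFIT5, which binds viral RNA, rose 1.56-fold by its brightest probe set (0.64 ± 0.05), with 1 of 2 probe sets up and a mean of both at 0.31.

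Well-known genes of the list differed in direction as well. Of the IFIT genes, whose proteins bind foreign RNA, IFIT2 (-0.81 ± 0.11), IFIT3 (-0.27 ± 0.05) and IFIT1 (-0.17 ± 0.04) fell while IFIT5 rose. ISG15, the ubiquitin-like modifier, fell (-0.30 ± 0.06), and IFI27 (0.34 ± 0.05) and IFI6 (0.21 ± 0.05) rose. These genes were picked from the list after their values were seen. Of the 40 listed genes with a promoter window, 27 held the core of the response element, and of these 8 fell, 9 rose and the others did not pass.

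**Figure D3:**
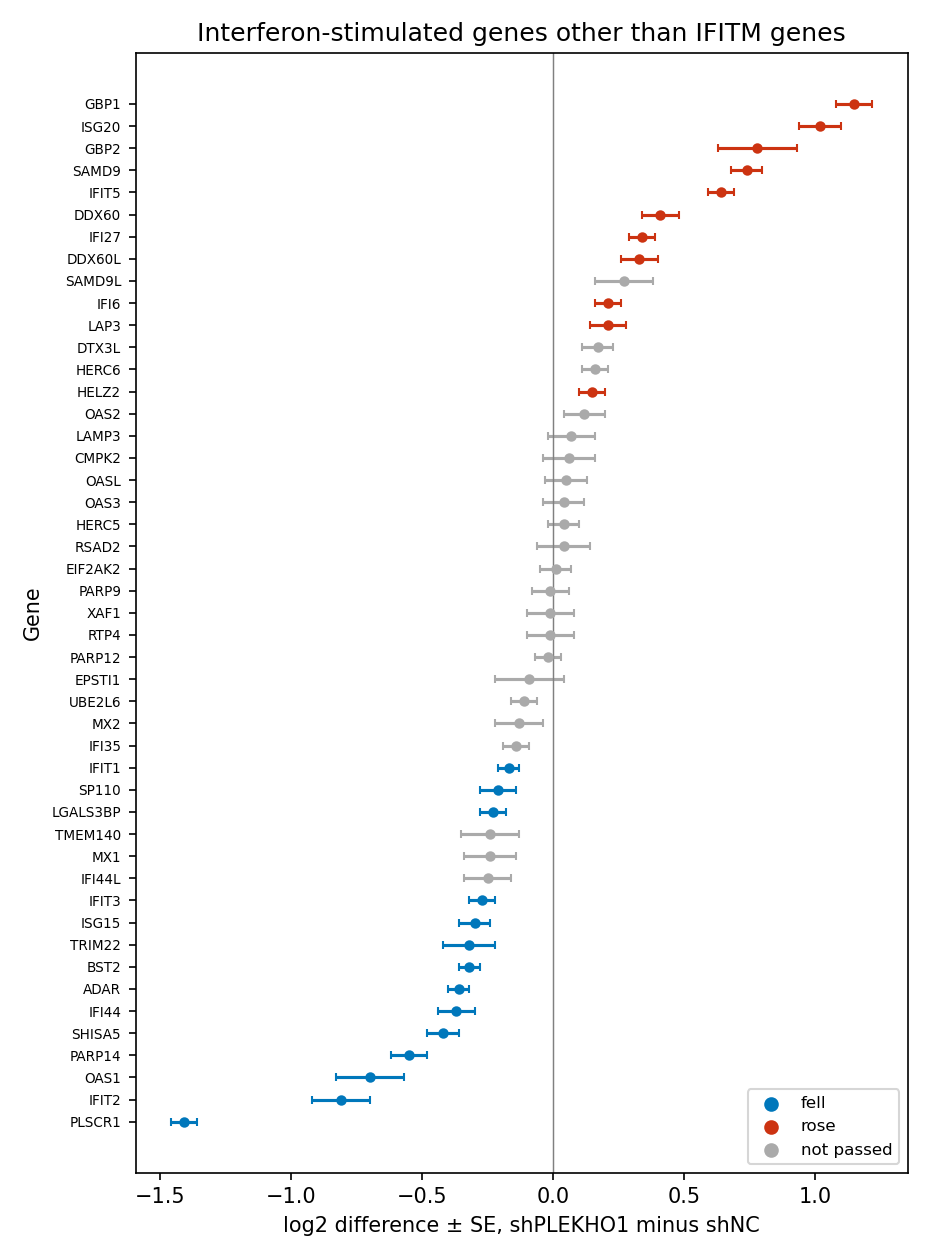
Log2 difference ± SE (shPLEKHO1 minus shNC, n = 3 per group) of the 47 measured interferon-stimulated genes, ordered by value, with genes that fell in blue (14), rose in red (11) and did not pass in grey (22). The values run from -1.41 (PLSCR1) to 1.15 (GBP1) around a median of -0.01.

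Interferon acts through receptors on the cell surface that signal through JAK kinases. Of 17 measured receptors, kinases, inhibitors and transcription factors of this signalling, 5 fell (29.4%), 2 rose (11.8%) and 10 did not pass (median -0.03). Among all genes, 16.0% fell and 18.1% rose. JAK1, the kinase shared by the receptors of all interferon types, fell 1.19-fold (-0.25 ± 0.05, limma adjusted p = 0.00379), from 2530 ± 58.6 to 2110 ± 90.1 (SD, n = 3). JAK2, which serves the interferon gamma receptor, rose 1.32-fold (0.40 ± 0.07), with 1 of 3 probe sets up.

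Among the receptors, IL10RB, a chain of the interferon lambda and interleukin 10 receptors, read 394.6, 369.8 and 361.8 with shNC and 236.2, 244.4 and 244.8 with shPLEKHO1. It fell 1.54-fold (-0.62 ± 0.05, adjusted p = 3.53e-05), with both probe sets down and no overlap of the groups. IFNGR2, a chain of the interferon gamma receptor, fell 1.28-fold (-0.36 ± 0.05). SOCS3, a feedback inhibitor of JAK kinases, rose 2.08-fold by its brighter probe set (1.06 ± 0.07), from 55.8 ± 2.53 to 117 ± 9.54 (SD, n = 3). Both of its probe sets were up, with a mean of 0.76.

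IRF9, the DNA-binding part of the complex that reads the response element, was just inside the threshold (-0.17 ± 0.05, limma adjusted p = 0.0405), and 1 of its 4 probe sets fell. Its call was lost with the replicate block (adjusted p = 0.0916), with the mean of its probe sets (-0.10, adjusted p = 0.188), without normalization between arrays (0.0526) and with median centring (0.0794). It was also lost without shNC replicate 1 (0.107), 2 (0.0565) or 3 (0.115) and without shPLEKHO1 replicate 1 (0.125) or 2 (0.075), and the range over the alternatives was 0.0223 to 0.188. IRF1, a factor that induces IFITM genes as well, did not pass (-0.16 ± 0.06, adjusted p = 0.0671, between 0.0214 and 0.171 over the alternatives), and it passed under 4 alternatives, among them without shPLEKHO1 replicate 1 (0.0396).

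Of 23 measured interferons, sensors of foreign nucleic acid and interferon regulatory factors, 5 rose (21.7%), 2 fell (8.7%) and 16 did not pass (median 0.03). All genes had shares of 18.1% that rose and 16.0% that fell. Only 1 fell with the mean of probe sets, with the replicate block, without shNC replicate 2 or 3 and without shPLEKHO1 replicate 2 or 3. The number that fell was 3 without normalization between arrays, without the dimmest 30%, with the variance trend and without shPLEKHO1 replicate 1. The kinase TBK1, which activates IRF3 and so interferon production, rose 1.44-fold (0.53 ± 0.05, limma adjusted p = 0.000121), with both probe sets up. IFIH1, the RNA sensor MDA5, rose 1.59-fold (0.67 ± 0.09), with 1 of 2 probe sets up and a mean of both at 0.39. The DNA sensor CGAS rose 1.25-fold (0.32 ± 0.05). MAVS, the adaptor through which RNA sensors signal, fell 1.30-fold (-0.38 ± 0.05), with 5 of 7 probe sets down.

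Genes of 21 proteins that modify IFITM proteins, bind them or sort them were measured. Of these genes, 5 fell (23.8%), 4 rose (19%) and 12 did not pass (median 0.00). The shares among all genes were 16.0% that fell and 18.1% that rose. ZDHHC7, one of the enzymes that attach palmitate to IFITM3, read 1493.0, 1419.9 and 1467.8 with shNC and 685.2, 737.9 and 710.0 with shPLEKHO1. The groups were well apart, and each of the 4 probe sets fell, here 2.07-fold (-1.05 ± 0.04, limma adjusted p = 3.39e-06). NEDD4, the ubiquitin ligase that marks IFITM3 for degradation, read 65.8, 55.0 and 58.7 with shNC and 128.0, 149.9 and 129.1 with shPLEKHO1. It rose 2.25-fold by its brightest probe set (1.17 ± 0.08, adjusted p = 3.26e-05), with all 3 probe sets up and a mean over probe sets of 0.79.

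VCP, an ATPase that draws ubiquitinated proteins out of membranes, fell 1.34-fold (-0.42 ± 0.04), with all 4 probe sets down. AP2B1, a subunit of the adaptor that takes IFITM3 up from the cell surface, rose by its brighter probe set (0.68 ± 0.05) while the other fell, and their mean was at 0.23. CD81, a surface partner of IFITM1, fell 1.19-fold (-0.25 ± 0.04, limma adjusted p = 0.0024). CD81 was named after its value was seen.

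Other factors that restrict viruses at entry, at an early step or at release also went both ways. Of 19 measured, 7 fell (36.8%), 4 rose (21.1%) and 8 did not pass (median -0.08). Among all genes, 16.0% fell and 18.1% rose. TRIM5, which binds the capsids of retroviruses, read 79.6, 72.6 and 72.0 with shNC and 30.6, 32.4 and 30.2 with shPLEKHO1. It fell 2.36-fold (-1.24 ± 0.06, limma adjusted p = 6.39e-06), with 2 of 3 probe sets down and a mean over probe sets of -0.79. NCOA7, which acts on the acidity of endosomes, rose 1.81-fold (0.86 ± 0.04, adjusted p = 6.43e-06), with 3 of 5 probe sets up and a mean over probe sets of 0.50. The cytidine deaminase APOBEC3B fell 1.60-fold (-0.67 ± 0.06), and SLFN11 fell 1.59-fold (-0.67 ± 0.07), with all 3 probe sets down.

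**Figure D4:**
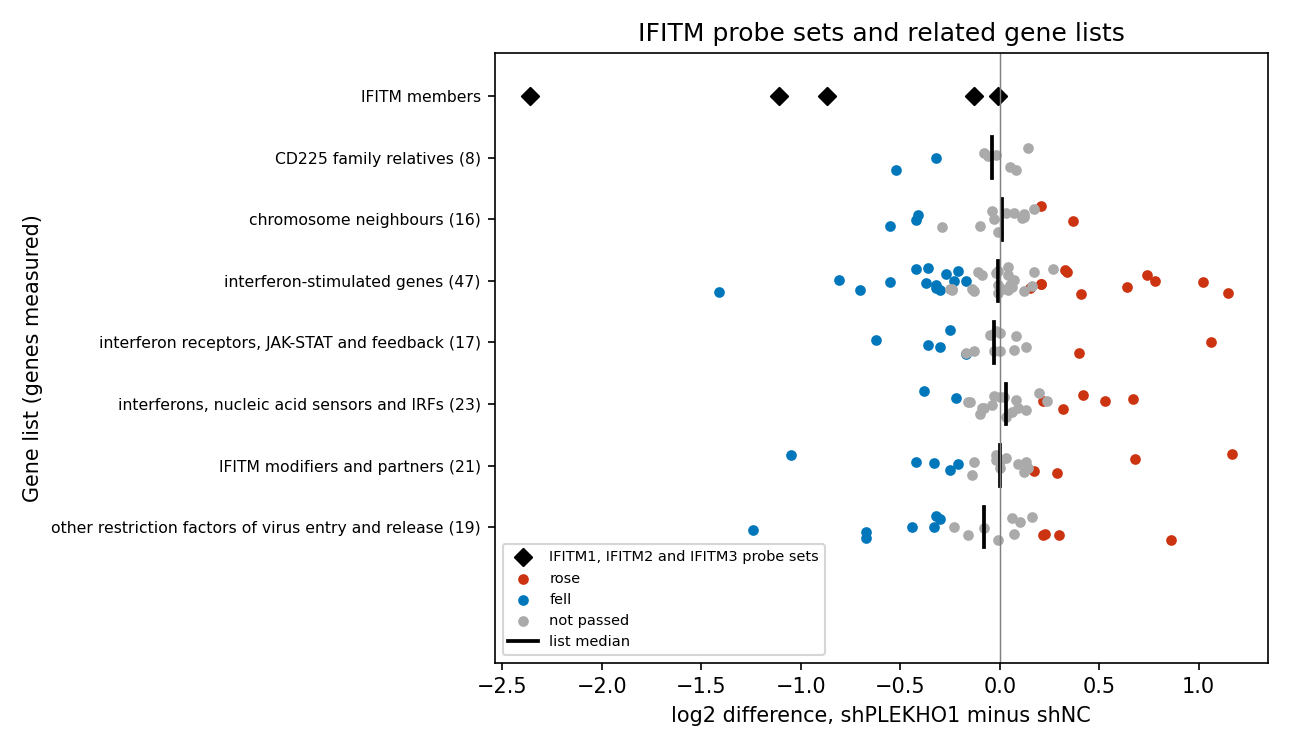
Log2 difference (shPLEKHO1 minus shNC) of the IFITM1, IFITM2 and IFITM3 probe sets (black diamonds) and of the measured genes of 7 lists, in red where they rose, blue where they fell and grey where they did not pass, with the median of each list as a black line. The list medians lie between -0.08 and 0.03, and IFITM3 at -2.36 lies outside the range of every list. IFITM3 was chosen for its large fall, so its place outside these ranges was largely set in advance.

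The genes with a pattern most like that of IFITM3 were found by the Euclidean distance between log2 profiles over the 6 arrays, each with its own shNC mean subtracted, among 18127 genes. The closest was AKR1B10, an aldo-keto reductase, at a distance of 0.16, with mean intensities of 1020 and 208 (log2 difference of -2.29 ± 0.06). ALYREF, a messenger RNA export factor, followed at 0.34 (-2.19 ± 0.09), and RAB8B, a small GTPase of vesicle transport, at 0.47 (-2.62 ± 0.05). Of the 4 probe sets of RAB8B, 2 fell and 1 rose. FCAMR, an immunoglobulin receptor, came next at 0.51 (-2.19 ± 0.16), then JPT2 at 0.70 and ANAPC13, a subunit of the anaphase-promoting complex, at 0.71. None of these 6 genes was on the lists of interferon-stimulated genes or of IFITM partners. This is a likeness over 6 arrays in 2 groups, and it follows mainly from the size of the fall.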

How the data were processed

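RNA of 6 arrays was measured with biotin-labelled complementary RNA, per the labels' protocols. The deposited intensity values are linear, between 4.33 and 19770. Per the submitters' processing notes, the authors used Affymetrix Expression Console. The algorithm, the software version and whether arrays were normalized to each other are not given in the sources used. Of 49395 probe sets, 102 were controls and 2569 had no symbol, most controls among them. Tests took 44988 probe sets with 1 symbol and, for the probe set fit, 1832 with several. Symbols were updated by Entrez identifier through RefSeq (GRCh38.p14) for 44961, and 27 kept the array's name.

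Values were transformed to log2(intensity + 1), quantile normalized and fitted in limma 3.58.1 (lmFit, eBayes; R 4.3.3) with the group as the only term. Benjamini-Hochberg adjustment ran over 46820 probe sets or over 18132 genes (brightest probe set each), with a threshold of 0.05. The pseudocount and remaining background understate the folds of dim genes. The limma fit over genes and its adjustment were tried on simulated gene values, and the steps before the fit were not. The members and lists were chosen with earlier results of these data known, and the lists were described by counts, without a set test. Named are PLEKHO1, all members, up to 4 genes with the smallest p among those past the threshold in each list, IRF9, IRF1, JAK1, the genes beside the family, and the 6 genes most like IFITM3, besides those said to be picked later. IFITM5 was added as a gene of the family, and the cell type markers named in the closing section were picked after their values were seen. Protein and probe sequences were not used here. Listed genes that were not among the genes tested are not analysed here. Alternatives were median centring, no normalization, no pseudocount, leaving out the dimmest 30%, the mean of probe sets, a variance trend, array weights, the replicate block and leaving out each array.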

Additional observations from a re-analysis of the deposited data

How the results depend on the processing

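Under every alternative run for them, the log2 differences of the 5 IFITM1, IFITM2 and IFITM3 probe sets moved by less than 1 SD. This SD is that between replicates, pooled over both groups. Some differences moved by more than the SD of the shNC arrays alone. Leaving out 1 of the 3 arrays of a group could hardly move a difference by the pooled SD. The variance trend and leaving out the dimmest 30% did not move the differences, so the bound says little about these settings. The mean of the probe sets of a gene gave -0.07 for IFITM1 and -0.99 for IFITM2. IFITM3 lay between -2.42 and -2.30, the IFITM2 probe sets between -1.18 and -1.00 and between -0.90 and -0.83, and the IFITM1 probe sets between -0.05 and 0.03 and between -0.18 and -0.07. The number of genes called lay between 5229 and 6682, against 6179, and PLEKHO1 kept its call (adjusted p 0.00264 to 0.0427). Of the lists, the count of called CD225 relatives ranged from 1 to 2 when 1 array was left out, and the total counts of the others stayed within 1.5 times. With the replicate block 5244 genes and 13309 probe sets were called. A block cannot move the differences in this balanced design. Same-numbered arrays did not deviate together (correlations of -0.16, -0.16 and -0.05), so the numbers were not taken as pairs. Among the genes named by rule, calls changed for IRF9, IRF1, IFITM10 and BET1L, as given with their values. The number of arrays limits the precision.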

Other observations

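The labelled cell type was checked against markers. Of 9 measured markers of renal carcinoma and epithelial cells, 3 rose, 3 fell and 3 did not pass. PAX8, the transcription factor of the renal lineage, fell (-0.25 ± 0.06), KRT18 (0.52 ± 0.06) and KRT8 (0.32 ± 0.04) rose, and the metabolic enzyme NNMT fell (-0.58 ± 0.05). VIM, at 14700 with shNC, was at 0.04 ± 0.04. The summed intensity of 7 leukocyte markers was 206 to 235 on the shNC arrays and 212 to 236 on the shPLEKHO1 arrays. None of these markers was called, and their means with shNC ran from 6.39 (PTPRC) to 88.4 (CD79A). Of 5 endothelial markers 0 were called by limma, and of 5 fibroblast markers 1 was, LUM, which rose from 25.7 to 45.8.

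Across all tested genes with a promoter window, 14425 in number, 19.1% rose and 16.3% fell. Of the 445 that held the core of the interferon-stimulated response element, 18.2% rose and 12.4% fell. Among the 46 with at least 2 matches, 10 rose and 9 fell. Both sets include IFITM1 and IFITM3 themselves, and IFITM3, which was chosen for its large fall, is counted among those that fell. These shares were not tested.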
